A study of Mus musculus with 9 samples.

Results

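The transcripts of the nuclear genes for subunits of the mitochondrial respiratory chain and of ATP synthase were described, complex by complex, in macrophages of mouse visceral fat with and without Nucb2. Members were chosen by a rule on gene symbols that uses no measured value, though earlier results of these data were known when it was set. By this rule 82 of the 14905 genes in the deposited table had a symbol of the Nduf (a, b, c, s or v with a digit), Sdh (a to d), Uqcr, Cox (4 to 8) or Atp5 series. Of these, 37 were assigned by symbol to complex I, 4 to complex II, 8 to complex III, 16 to complex IV and 17 to complex V. The table was filtered on low values before deposit, so a gene of these series that the filter removed is not analysed here. The groups were 5 libraries of Nucb2-/- mice (KO) and 4 of wild type mice (WT), and the background strain of both was C57BL/6. The product of Nucb2 is nucleobindin-2, which binds calcium and is also the precursor of the peptide nesfatin-1. RNA came from cells of visceral adipose tissue that were sorted as positive for F4/80 and CD11b, a pair of surface proteins of macrophages. The deposited table is named with the letters HFD, in common use for a high-fat diet, which the labels do not explain. The labels give neither the diet, age or sex of the mice, nor how the allele was made, nor whether the libraries of a group are separate mice. The p-values therefore refer to the spread among these libraries, part of which may be technical.

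The respiratory chain lies in the inner mitochondrial membrane. Complex I (NADH dehydrogenase) and complex II (succinate dehydrogenase, which is also an enzyme of the citric acid cycle) pass electrons to coenzyme Q, complex III (the cytochrome bc1 complex) passes them on to cytochrome c, and complex IV (cytochrome c oxidase) passes them to oxygen. Complexes I, III and IV pump protons, and complex V (ATP synthase) uses the gradient to make ATP. In macrophages the use of this chain shifts with activation, and succinate dehydrogenase and complex I are also known as sites that bear on the production of reactive oxygen species. Complexes I, III, IV and V each combine nuclear subunits with subunits encoded in mitochondrial DNA, whereas complex II is wholly nuclear. The transcripts of the 13 mitochondrially encoded subunits are not analysed here.

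The libraries fell into 6 deeper ones of 74937719 to 85200098 reads (KO replicates 1 to 4, WT replicates 1 and 2) and 3 shallower ones of 51148955 to 55004978 reads (KO replicate 5, WT replicates 3 and 4). The targeted gene was lower in the KO libraries, at 1493, 1466, 1623, 1165 and 1752 normalized counts against 4457, 4253, 5233 and 3311 in WT (log2 difference -1.52, SE 0.17; limma, adjusted p = 0.000539). All 10 macrophage markers on the list, Adgre1 and Itgam of the sort among them, were above the floor in all 9 libraries, with summed levels of 1343180 to 1540760 normalized counts in KO and 1352800 to 1519860 in WT. Of these 10, 0 were called in limma, while at an unadjusted p under 0.05 3 were lower in KO (C1qa, -0.50, adjusted p = 0.0667; Fcgr1, -0.50; Adgre1, -0.22) and 1 was higher (Itgam, 0.18, all log2 differences). Among markers of other cells, the 7 mast cell genes summed to 1511 to 2838 normalized counts in KO and 5157 to 9426 in WT, and 4 of them fell (Tpsb2, Cma1, Cpa3 and Fcer1a; limma, adjusted p = 0.00921 to 0.0223). The 6 mesothelial genes summed to 5253 to 16781 in KO and 1768 to 7128 in WT. For the 6 endothelial genes the sums were 3378 to 6205 in KO and 1453 to 3038 in WT. Of these 12 genes 0 were called in limma. At an unadjusted p under 0.05, 7 were higher in KO (4 mesothelial and 3 endothelial) and 0 lower. Over all genes 5.37% were higher and 3.78% lower at that threshold. The 5 adipocyte genes summed to 246925 to 333727 in KO and 300175 to 385852 in WT. Nearly all of this was Lpl, also a macrophage gene (means of 297374 and 340959). Of these 5 genes, 3 had a negative log2 difference. Only Lep, at 1.27 to 152 in KO and 154 to 568 in WT, had an unadjusted p under 0.05 in limma. The 4 neutrophil genes summed to 389 to 934 in KO and 294 to 655 in WT, and the 4 T cell genes to 188 to 516 and 180.0 to 463. In these lists 0 genes were called. The precursor of ribosomal RNA, Rn45s, took 1.84% to 2.16% of the normalized counts in KO and 2.64% to 3.54% in WT. The part of these shifts in the results on the subunit genes was not tested. In sorted bulk RNA, fewer cells of a type and less RNA per cell cannot be told apart.

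Sequences upstream of the start sites are shown for 1 gene of each complex, because the genes of all 5 complexes are known as shared targets of a few transcription factors. The stretches come from RefSeq promoters on GRCm38.p6, written 5′ to 3′ on the strand of the gene and limited to bases that GENCODE release M21 places in no exon. Capitals mark a match to NRF1 (Ndufa11 and Cox6a1), to an ETS site of the kind bound by GABP (Sdhd and Uqcrh) or to an estrogen-related receptor site (Atp5g3).
Ndufa11 (chr17:56717686-56717761, plus strand): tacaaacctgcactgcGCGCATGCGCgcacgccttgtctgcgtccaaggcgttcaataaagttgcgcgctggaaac
Sdhd (chr9:50603850-50603909, minus strand): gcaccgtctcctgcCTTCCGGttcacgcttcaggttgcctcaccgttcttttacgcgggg
Uqcrh (chr4:116075072-116075191, minus strand): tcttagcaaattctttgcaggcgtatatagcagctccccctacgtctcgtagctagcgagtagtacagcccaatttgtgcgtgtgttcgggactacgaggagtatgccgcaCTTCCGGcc
Cox6a1 (chr5:115349010-115349129, minus strand): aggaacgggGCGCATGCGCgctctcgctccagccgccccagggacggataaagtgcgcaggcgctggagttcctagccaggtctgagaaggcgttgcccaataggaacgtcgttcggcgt
Atp5g3 (chr2:73911327-73911446, minus strand): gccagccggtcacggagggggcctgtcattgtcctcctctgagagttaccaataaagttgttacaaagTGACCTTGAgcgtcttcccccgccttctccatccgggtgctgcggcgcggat
In Ndufa11 the capitals begin 60 bases before the start site, in Sdhd 46, in Uqcrh 10, in Cox6a1 162 and in Atp5g3 52. RefSeq promoters of 300 bases (250 before and 50 after the start) were matched for 68 of the 82 members and searched on both strands. The NRF1 letters GCGCATGC, part of a palindrome so that matches on both strands can overlap, were in 10 of the 68 (14.7%; 2.80% of all 27025 promoters). The ETS letters CCGGAAG were in 15 (22.1%; 9.12% of all), the YY1 letters AAGATGGCG in 7 (10.3%; 1.49% of all) and the estrogen-related receptor letters TCAAGGTCA in 2 (2.94%; 0.407% of all). At least 1 of the 4 motifs was in 28 of 68 (41.2%, beside 12.9% of all). No set of promoters matched in expression or base composition was taken, so these contrasts may not be particular to the subunit genes. By complex, NRF1 matches were in 3 of 32 promoters of complex I, 1 of 3 of complex II, 2 of 5 of complex III, 1 of 12 of complex IV and 3 of 16 of complex V. YY1 matches were in 5 promoters of complex I and 2 of complex V. A match describes the letters of the window and does not show that the factor binds there.

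Levels differed far more between genes than between genotypes. They are given per kilobase of the shortest principal GENCODE transcript, averaged over all 9 libraries. Cox4i1, the common form of a regulatory subunit of complex IV, was the highest of the 82 at 46993 normalized counts per kilobase. Within complex V the highest were Atp5g2, which encodes the c subunit of the membrane rotor, and Atp5l, which encodes subunit g, at 35430.0 and 33764. Uqcrb and Uqcrh, small subunits of complex III, stood at 33379 and 25565. In complex I the highest was Ndufa4, a small subunit that is now counted with complex IV, at 30498, followed by Ndufc1 at 21272. In complex II the order was Sdhb (13916), Sdhd (9344), Sdha (5828) and Sdhc (2884). The lowest level of complex I was that of Ndufa4l2 (273) and the next that of Ndufs1 (1861), the large iron-sulfur subunit of the matrix arm. Uqcrfs1, the Rieske iron-sulfur protein of complex III, stood at 1288, well under Uqcrc2 and Uqcrc1 (5654 and 6184), which encode the core proteins. Atp5sl and Atp5s, at 284 and 179, were the lowest of complex V. Both carry the Atp5 prefix without being subunits, and Atp5sl is now named Dmac2, a factor of complex I assembly. Median levels per kilobase were 7123 for complex I, 7586 for complex II, 18671 for complex III, 12858 for complex IV and 16347 for complex V. For 6 members the longest principal transcript was over 1.5 times the shortest, so their place in this order depends on the transcript used; Ndufc1 stood at 5365 and Atp5g2 at 21374 with the longest.

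**Figure D1:**
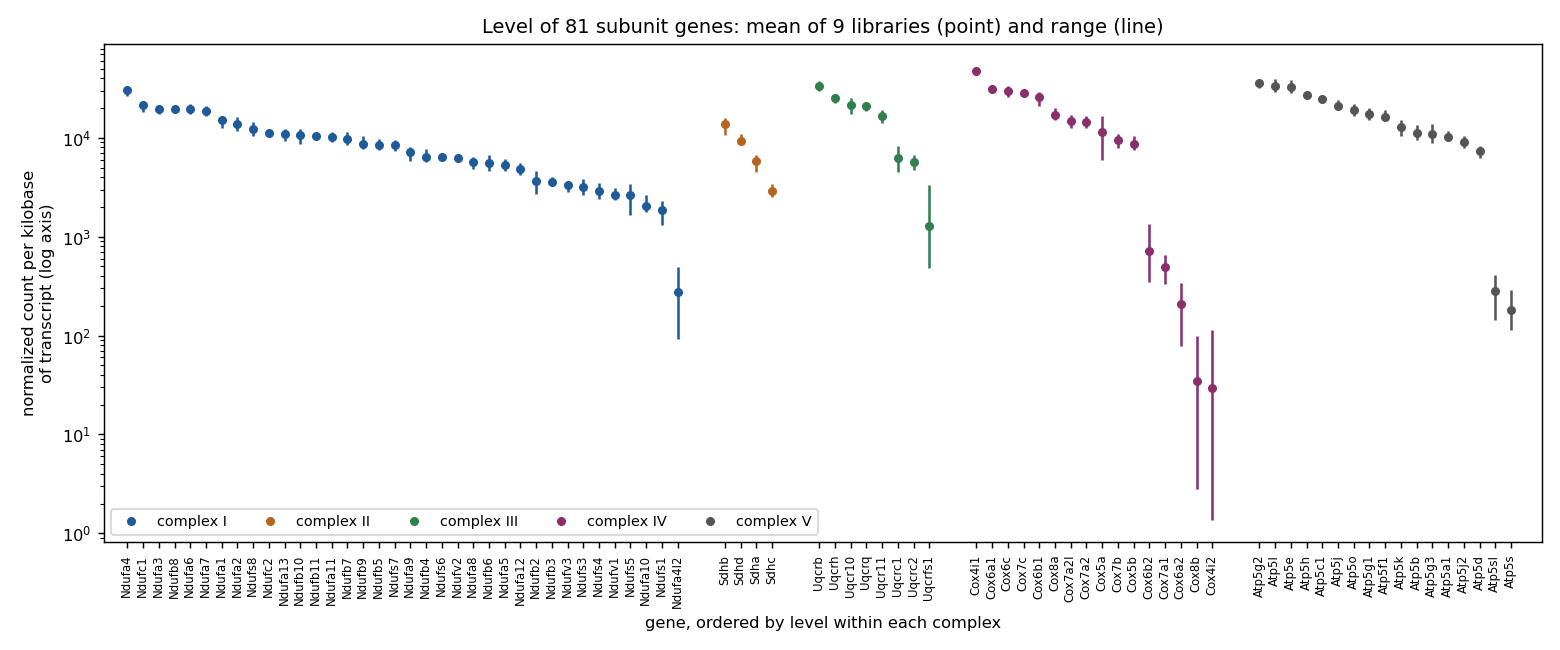
Level of 81 of the 82 subunit genes, in normalized counts per kilobase of the shortest principal transcript on a log axis, ordered by level within each complex; points are means of all 9 libraries and lines the range over libraries. Cox4i1 is highest, and the tissue isoforms of complex IV (Cox6b2, Cox7a1, Cox6a2, Cox8b and Cox4i2), Ndufa4l2, Atp5sl and Atp5s lie far under the rest of their complexes.

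No subunit gene was called different between KO and WT. Over all 14905 genes, limma called 46 at an adjusted p under 0.05 (0.309%), of which 27 were higher in KO (0.181%) and 19 lower (0.127%); among the 82 members the count was 0, and the smallest adjusted p was 0.264, for Atp5o. In limma-voom on the recovered reads the members' count was also 0, with 4 at an unadjusted p under 0.05 (beside 1231 of all genes). With single libraries left out the count over all genes dropped to 8, 14, 5, 8 and 9 (KO replicates 1 to 5 in turn), and to 10, 18 and 19 (WT replicates 2, 3 and 4), while the members' count was 0 under each of the alternatives tried. At an unadjusted p under 0.05 there were 7 members (8.54%, against 9.14% of all genes): 6 with a lower mean in KO (7.32%, against 3.78%), namely Ndufb2, Cox5b, Cox7a2, Atp5k, Atp5g3 and Atp5o, and 1 with a higher mean (1.22%, against 5.37%), Atp5sl. That count of members was 12 and 14 without KO replicates 1 and 2 (beside 1319 and 1406 of all genes) and 14 without WT replicate 1 (beside 1572). It was 1 without KO replicate 3 (beside 1191 of all genes) and 2 without WT replicate 3 (beside 1216).

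Small differences mostly had the same sign. The log2 difference, KO minus WT, was below 0 for 69 of the 82 members (84.1%), against 7096 of all genes (47.6%) and 55.2% of the 6257 genes averaging 1000 or more normalized counts. By complex this held for 32 of 37 members of complex I, 3 of 4 of complex II, 6 of 8 of complex III, 12 of 16 of complex IV and 16 of 17 of complex V. Median log2 differences were -0.10 for complex I, -0.16 for complex II, -0.083 for complex III, -0.13 for complex IV and -0.13 for complex V, and -0.12 over all 82 members (92.3% of WT), beside 0.021 over all genes and -0.025 over the genes that average 1000 or more. No p-value is given for these medians, and no background of genes matched in level to the members was taken. For 70 members the 95% interval of the difference lay wholly within 1.5-fold in either direction (34 of complex I, 4 of complex II, 7 of complex III, 10 of complex IV and 15 of complex V). That is 85.4% of the members, beside 28.0% of all genes and 65.6% of the genes averaging 1000 or more. The KO range lay wholly below the WT range in 4 members, Ndufb2, Sdhb, Cox7a2 and Atp5o (4.88%, against 1.6% of all genes), and wholly above it in 0 (against 1.55% of all genes); without regard to direction, 3.15% of all genes had ranges that did not overlap. Within the 6 deeper libraries (4 KO and 2 WT) 60 members were below 0 (median -0.096), beside 7351 of all genes. Within the 3 shallower ones 72 members were below 0 (median -0.20), beside 6859 of all genes, but these hold 1 KO library against 2 of WT. Leaving out each library in turn gave medians from -0.14 to -0.10.

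The count of members below 0 moved with the scaling. The normalized totals per library did not overlap between the groups, at 65109000 to 67031400 in KO and 68500100 to 70902600 in WT. When each library was instead scaled to the same total, an alternative chosen after seeing the data, 59 of 82 members (and 38.3% of all genes) were below 0, the members' median was -0.040 and the median over all genes was 0.096. The distance between both medians was -0.14 under either scaling. Scaling to equal totals shifts nearly all genes of a library alike, so this distance could hardly change and is no check of the result. With quantile normalization 69 members were below 0 and that distance was -0.069.

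**Figure D2:**
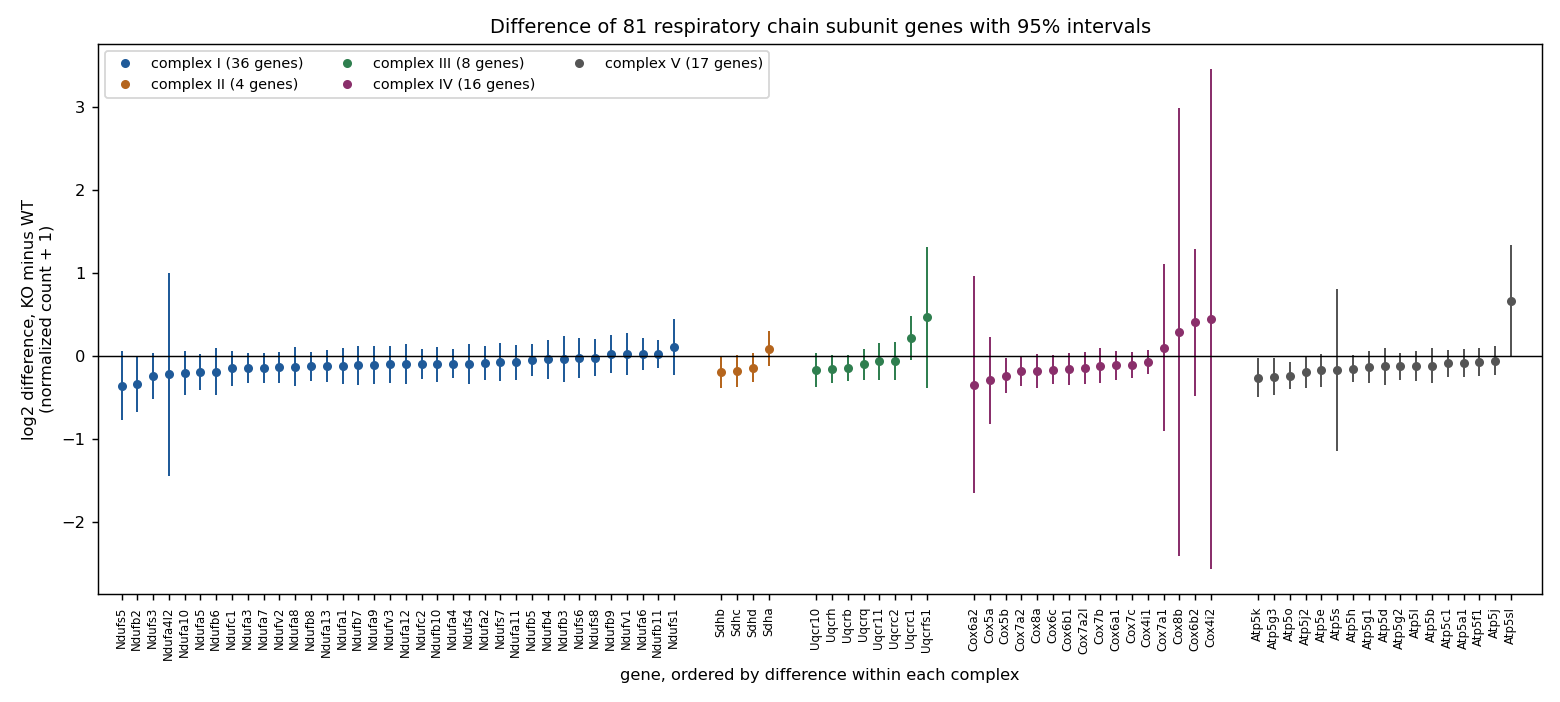
Log2 difference, KO minus WT, of 81 of the 82 subunit genes with its 95% interval from limma, ordered within each complex. Most points lie just below 0, and the intervals of 7 genes do not reach 0, 6 below it and 1 above it; 0 of the 82 passed after adjustment over all genes, and the widest intervals belong to the low genes Cox4i2 and Cox8b.

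In complex I, the entry point for electrons from NADH, the most negative differences were those of a pair of accessory subunits. Ndufb2, of the membrane arm, lies on chromosome 6 from 39592574 to 39603382 (mm10). Its normalized counts were 1588, 1501, 1233, 1417 and 1626 in KO replicates 1 to 5 and 1869, 1704, 1799 and 2076 in WT replicates 1 to 4. The groups did not overlap, with KO replicate 3 lowest and WT replicate 4 highest. The means were 1473 ± 156 and 1862 ± 158 (SD; 5 KO and 4 WT libraries), a log2 difference of -0.34 (SE 0.16; limma, adjusted p = 0.546). Ndufs5, a subunit of the intermembrane face, had 1231, 1330.1, 1421, 878 and 1244 in KO and 1694, 1783, 1339.8 and 1410.4 in WT. KO replicate 4 was lowest, and KO replicate 3 lay above WT replicates 3 and 4. The difference was -0.36 (SE 0.19, adjusted p = 0.606 in limma). Ndufa5, an accessory subunit of the matrix arm, had 4405 ± 319 against 5035 ± 259.7, overlapping by KO replicate 2. The highest difference of complex I was that of Ndufs1 at 0.11 (95% interval -0.23 to 0.45), with 5329.6, 5921, 5030.0, 4343 and 4141 in KO and 4137, 5145, 5913 and 3419.7 in WT; it was -0.029 without WT replicate 4. WT replicate 4 was the lowest library of Ndufs1, and KO replicate 2 and WT replicate 3 were the highest. Other core subunits of the matrix arm ranged from -0.24 for Ndufs3 to 0.021 for Ndufv1, which binds NADH and FMN; Ndufs7, Ndufs8 and Ndufv2, which hold iron-sulfur clusters, stood at -0.077, -0.019 and -0.14. By symbol, 13 of 14 Ndufa genes (median difference -0.12), 8 of 10 Ndufb genes (-0.072), both Ndufc genes, 7 of 8 Ndufs genes (-0.085) and 2 of 3 Ndufv genes (-0.10) were below 0. The 3 above 0 besides Ndufs1 and Ndufv1 were Ndufa6, Ndufb9 and Ndufb11, at 0.025, 0.02 and 0.025. Of the accessory subunits of the matrix arm and its base, Ndufa7, Ndufa9, Ndufa12 and Ndufs4 stood at -0.15, -0.11, -0.10 and -0.092, and of the membrane arm, Ndufa8, Ndufa13, Ndufb8 and Ndufb10 at -0.13, -0.12, -0.12 and -0.10. In each of these 8 the KO and WT ranges overlapped.

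All 4 genes of complex II were measured well above the floor. Sdhb, the iron-sulfur subunit, lies on chromosome 4 from 140961203 to 140979193. Its normalized counts were 16314, 14688, 15786, 15955 and 12191 in KO and 16500.0, 17969, 16638 and 16987 in WT. The groups did not overlap, but the gap between KO replicate 1 and WT replicate 1 was small and KO replicate 5 stood lowest (log2 difference -0.19, SE 0.092; limma, adjusted p = 0.553). Sdhc and Sdhd encode the membrane anchors. Sdhc, on chromosome 1 from 171127165 to 171150603, had 8457, 9096, 8532, 8910.4 and 8047 in KO and 10333, 9329.7, 8785 and 10812 in WT. KO replicates 2 and 4 exceeded WT replicate 3, and the difference was -0.19 (SE 0.091, adjusted p = 0.562 in limma). Sdhd, on chromosome 9 from 50596357 to 50603812, had 11181, 10977, 10976, 10856 and 10911 in KO and 12527, 10963, 13394 and 11739 in WT (difference -0.14, SE 0.082, adjusted p = 0.635 in limma). WT replicate 2 lay below KO replicates 1, 2 and 3, and the other 3 WT libraries above all KO libraries. The 5 KO values of Sdhd lay within a coefficient of variation (SD over mean) of 1.12%, the smallest of 2237 genes that averaged 4000 to 40000 normalized counts, against 8.58% in WT. Sdha, the flavoprotein that oxidizes succinate, lies on chromosome 13 from 74322254 to 74350280 and went the other way, at 19226, 17554, 17647, 16118 and 16004 in KO and 16836, 13107, 17989 and 17624 in WT. Its difference of 0.087 (95% interval -0.13 to 0.30) turned to -0.017 without WT replicate 2, the lowest of the 9 libraries.

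In complex III, 6 of 8 members were below 0, and Uqcrc1 and Uqcrfs1 were above it. Uqcrh, the hinge protein next to cytochrome c1, lies on chromosome 4 from 116066965 to 116075071 and had 13591, 14841, 12259.9, 12969.8 and 12956 in KO and 14678, 14916, 14919.7 and 14726 in WT. The 4 WT values lay within a coefficient of variation of 0.851%, and of the KO values replicate 2 lay among them (difference -0.16, SE 0.079; limma, adjusted p = 0.583). Uqcrb and Uqcr10, further small subunits, had 17054 ± 934 against 18863 ± 1055 and 8840.1 ± 808 against 9897 ± 777 (SD, n = 5 and 4; differences -0.15 and -0.16). Uqcrc1, a core protein, lies on chromosome 9 from 108936633 to 108949623 and had 10360.3, 11332, 9242, 13698 and 9908 in KO and 9793, 10814, 9362 and 7485 in WT. KO replicate 4 was highest and WT replicate 4 lowest, with the rest mixed (difference 0.22, 95% interval -0.049 to 0.49, adjusted p = 0.634 in limma). Uqcrc2, the other core protein, had 9016 to 12732 in KO and 10241 to 11899.8 in WT; its difference of -0.063 became 0.07 in the deeper libraries and 0.013 with equal totals. The small subunits Uqcrq and Uqcr11 stood at -0.10 and -0.065. Whether the members of complex III differed from each other in their response was not tested.

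In complex IV the common subunits lay slightly lower in KO, and 2 of them had an unadjusted p under 0.05. Cox5b, a zinc-binding subunit of the matrix face, lies on chromosome 1 from 36691449 to 36693681 and had 7649, 7199.9, 6454, 6714 and 6631 in KO and 7086, 9068, 8688 and 7929 in WT. WT replicate 1 fell among the KO values, and the other 3 WT libraries lay above all KO libraries (difference -0.24, SE 0.10; limma, adjusted p = 0.483). Cox7a2, the liver-type form of subunit VIIa, lies on chromosome 9 from 79755361 to 79759878 and had 9155, 9029, 8196, 8965 and 9201 in KO and 9570.4, 9716, 11031 and 10158 in WT. The groups did not overlap (difference -0.18, SE 0.085; limma, adjusted p = 0.543). Cox6c, on chromosome 15 from 35925886 to 35938246, had 14041 ± 811 against 15748 ± 1134 (SD, n = 5 and 4; difference -0.16, adjusted p = 0.567 in limma). Cox4i1, on chromosome 8 from 120668222 to 120674207, had 35519.9, 35799, 31877, 34759 and 33138 in KO and 33589.6, 39091, 36212 and 35104 in WT, with the groups interleaved (difference -0.072, 95% interval -0.22 to 0.077); with libraries scaled to the same total it was 0.0033. Ndufa4 had 11843 to 14700.4 in KO and 13746 to 14700.2 in WT. Cox7b, Cox7c, Cox6a1, Cox6b1, Cox8a and Cox7a2l, the last a factor that joins complexes III and IV, had differences of -0.12, -0.11, -0.11, -0.16, -0.18 and -0.15.

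In complex V, 16 of 17 members were below 0, and the smallest p among all 82 members was found here. Atp5o encodes OSCP, which ties the peripheral stalk to the catalytic head, and lies on chromosome 16 from 91925214 to 91931687. Its normalized counts were 14983, 15092, 14151, 15657 and 14062 in KO and 16109.7, 17488, 18514 and 17794 in WT. All KO values were below all WT values, with a KO mean at 84.6% of that of WT (log2 difference -0.24, SE 0.076; limma, adjusted p = 0.264). Atp5k, which encodes subunit e of the membrane part, lies on chromosome 5 from 108433244 to 108434448 and had 4856, 4773, 4031, 4399.8 and 3890.0 in KO and 4963, 5503, 5670.3 and 4853 in WT. KO replicate 1 reached WT replicate 4 (difference -0.26, SE 0.11; limma, adjusted p = 0.49). Atp5g3, 1 of 3 genes for the same mature c subunit, lies on chromosome 2 from 73908447 to 73911326 and had 7211, 7533, 6311, 7893 and 7179 in KO and 7576, 7883, 9899.7 and 9090.1 in WT. WT replicates 3 and 4 lay above all others, and WT replicates 1 and 2 among the KO values (difference -0.25, SE 0.11; limma, adjusted p = 0.485; -0.10 in the deeper libraries). Genes of the catalytic head and central stalk had differences of -0.086 for Atp5a1 (alpha), -0.12 for Atp5b (beta), -0.09 for Atp5c1 (gamma), -0.13 for Atp5d (delta) and -0.17 for Atp5e (epsilon). Those of the peripheral stalk besides Atp5o stood at -0.071 for Atp5f1 (b), -0.15 for Atp5h (d) and -0.057 for Atp5j (F6). In the membrane part, Atp5g1 and Atp5g2 stood at -0.14 and -0.13, Atp5l at -0.12 and Atp5j2 (f) at -0.19. In all of these 12 genes the ranges of KO and WT overlapped. Atp5sl stood alone above 0, on chromosome 7 from 25619414 to 25625551, with 969, 778, 706, 947 and 591 in KO and 476, 344, 409.9 and 884 in WT. WT replicate 4 was within the KO range (difference 0.67, SE 0.31, adjusted p = 0.546 in limma). The difference was 1.06 in the deeper libraries and -0.027 in the shallower ones, of which only 1 is KO.

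Several subunits of complex IV, and the c subunit of ATP synthase, are encoded by more than 1 gene, with some forms known from heart and muscle, brown fat, lung, pericytes or testis. In each of 5 pairs of a common and a tissue form, the common form took at least 94.4% of the signal in every library. Per kilobase, Cox4i1 made up 99.9% of the Cox4i1 and Cox4i2 signal in both groups, and Cox8a 99.8% of that of Cox8a and Cox8b. Cox6a1 made up 99.3% ± 0.342 of its pair with the muscle form Cox6a2 in KO and 99.3% ± 0.29 in WT, and Ndufa4 99.1% ± 0.658 and 99.1% ± 0.338 of its pair with Ndufa4l2 (SD, n = 5 and 4). Cox6b2, known as a testis form, took 3.21% ± 1.37 of its pair with Cox6b1 in KO and 2.17% ± 0.71 in WT, with KO replicate 3 at 618.6 normalized counts against 297 to 333 in the other 4 KO libraries. Cox7a1, the heart and muscle form that is also high in brown fat, took 1.79% ± 0.0899 and 1.57% ± 0.578 of the sum with Cox7a2 and Cox7a2l. Cox7a2 took 48.2% and 48.9%, and Cox7a2l, the factor that joins complexes III and IV, 50.04% and 49.5%. Beside Cox7a2 alone the share of Cox7a1 is larger. Per kilobase these 2 genes stood at 502 and 13519 in KO and at 490 and 15355 in WT. The c subunit genes Atp5g1, Atp5g2 and Atp5g3 took 27.5%, 55.9% and 16.6% in KO and 27.2%, 55.0% and 17.8% in WT with the shortest transcripts; with the longest the shares were 6.48%, 62.9% and 30.6% in KO, so their order rests on the transcript used. Cox4i2 and Cox8b were each at the floor of 1 in 3 of 9 libraries, with at most 83.5 and 35.6 normalized counts. Normalized counts ranged over 53.4 to 202 in KO and 104 to 229 in WT for Cox6a2, 178 to 215 and 132 to 254 for Cox7a1, and 87 to 458 and 169 to 396 for Ndufa4l2. None of these tissue forms was called, and the 95% intervals of Cox4i2 (-2.57 to 3.46) and Cox8b (-2.41 to 2.99) allow large changes either way. Markers of the cells in which these forms are known were present at these levels: the 3 brown adipocyte genes measured summed to 3.72 to 158 normalized counts in KO and 3 to 50.9 in WT, the 5 skeletal muscle genes to 172 to 577 and 102 to 343, and the 7 pericyte and smooth muscle genes to 2700.3 to 5124 and 1594 to 3191. Ucp1 and Cidea of the brown adipocyte list and Myh4 of the muscle list were not found in the filtered table. Of the brown fat markers measured, Elovl3 and Ppara were at the floor in 6 of 9 libraries and Dio2 in 5. For Elovl3 these held all 4 of WT. Of the muscle markers, Myl1 was at the floor in 3, Ckm in 2 and Mylpf in 1. Of these 15 markers 0 were called in limma. At an unadjusted p under 0.05, 3 were higher in KO and 0 lower, beside 5.37% and 3.78% of all genes. In the brown adipocyte list 1 of 3 had a difference below 0 (Dio2, -1.71) and in the muscle list 1 of 5 (Tnnt3, -1.57). In the pericyte and smooth muscle list 2 of 7 were below 0. Acta2, the actin of smooth muscle, ranged over 474 to 1527 normalized counts in KO and 192 to 890.3 in WT, Myl1, a myosin light chain of muscle, over 10.7 to 153 and 1 to 43.6, and Elovl3 over 1 to 92.3 in KO. The source of the tissue forms was not tested.

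By library, the medians of the subunit genes overlapped between the genotypes. Each gene's log2 value was taken relative to its mean over all 9 libraries, and the median over the 82 members was 0.021, 0.021, -0.12, -0.049 and -0.12 in KO replicates 1 to 5 and 0.01, 0.092, 0.15 and 0.028 in WT replicates 1 to 4. WT replicate 3 held the highest value for 31 members and WT replicate 2 for 25, whereas KO replicate 5 held the lowest for 30 and KO replicate 3 for 22. KO replicates 1 and 2 lay above WT replicate 1. The 5 complexes followed each other in most libraries. In WT replicate 3 the medians were 0.13, 0.086, 0.15, 0.21 and 0.19 for complexes I to V, and in KO replicate 3 they were -0.11, -0.033, -0.13, -0.16 and -0.092. Complex II departed from the others in WT replicate 1 (0.094, where complexes I, III, IV and V had 0.017, -0.025, 0.0051 and -0.01) and in WT replicate 2 (-0.015, where these had 0.10, 0.098, 0.10 and 0.06). The medians over all genes lay between -0.011 and 0.03 in every library. WT replicate 3, with the highest median, and KO replicate 5, which held the most lowest values, are of the shallower class, and KO replicate 3, with the lowest median, is of the deeper. As a share of all normalized counts, the 82 genes took 1.08% to 1.17% in KO and 1.12% to 1.22% in WT.

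**Figure D3:**
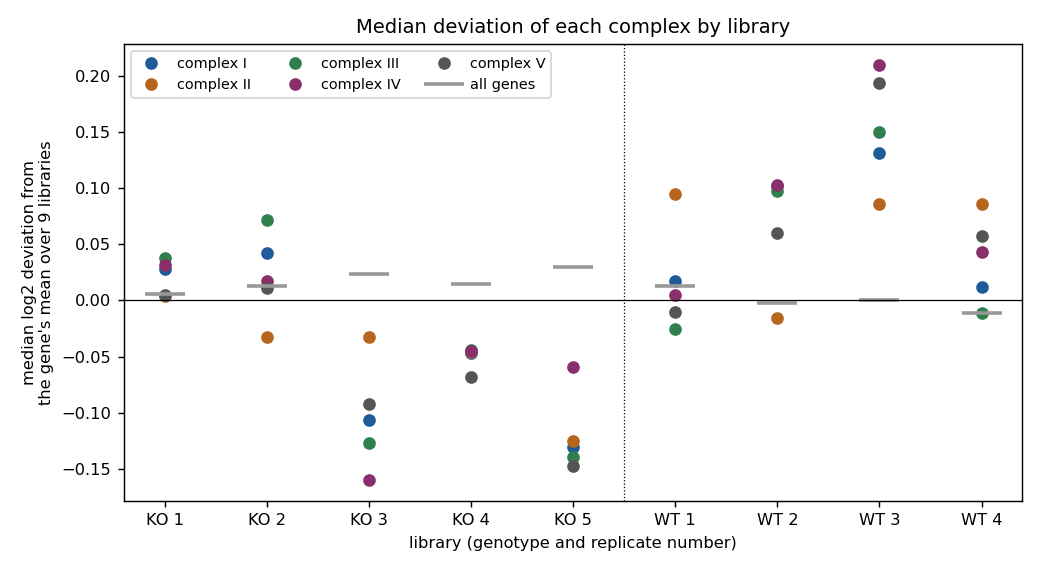
Median log2 deviation of the members of each complex from each gene's mean over all 9 libraries, by library; points are the 5 complexes and grey bars the median over all 14905 genes. KO replicates 3, 4 and 5 lie below 0 and WT replicates 2 and 3 mostly above it, while KO replicates 1 and 2 overlap WT replicates 1 and 4.

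Most subunit genes varied little between libraries of a group. Among the 67 members with a mean of 4000 to 40000 normalized counts, the median coefficient of variation was 7.28% in KO and 7.32% in WT, beside 10.5% and 10.6% for all 2237 genes of that range. Within this range Cox5a had the largest coefficient of variation of the 67 in both groups, and it was singled out after its values were seen. Uqcrfs1, with a mean of 1756, lies under this range and is described beside it. Some members with still lower means varied as much or more among the KO libraries, such as Ndufa4l2 (68.2%), Cox8b (95.1%) and Cox4i2 (99.7%). Cox7a1, also low, did not (8.39%). Cox5a, a subunit of the matrix face of complex IV, lies on chromosome 9 from 57521274 to 57532426 and had 4703, 3813, 8542, 8216 and 8441 in KO replicates 1 to 5 and 5432, 6935, 10838 and 9150.1 in WT replicates 1 to 4. The coefficient of variation was 34.0% in KO and 29.5% in WT, and replicates 1 and 2 of both genotypes were the 4 lowest libraries. Uqcrfs1 lies on chromosome 13 from 30540308 to 30545362 and had 956, 1148, 1761, 4494 and 1889 in KO and 663, 1296, 2287 and 1309.5 in WT (coefficients of variation of 69.4% and 48.3%). Here too replicates 1 and 2 of both genotypes were the 4 lowest, with WT replicate 4 only just above WT replicate 2, and KO replicate 4 was above every other library. Neither gene was called (Cox5a -0.29, 95% interval -0.81 to 0.23; Uqcrfs1 0.47, 95% interval -0.38 to 1.32). The labels name no batch, and the cause of this spread was not tested. Whether these genes have near-identical copies in the genome was not checked. How reads shared with any such copies were counted is not given in the sources used here.

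**Figure D4:**
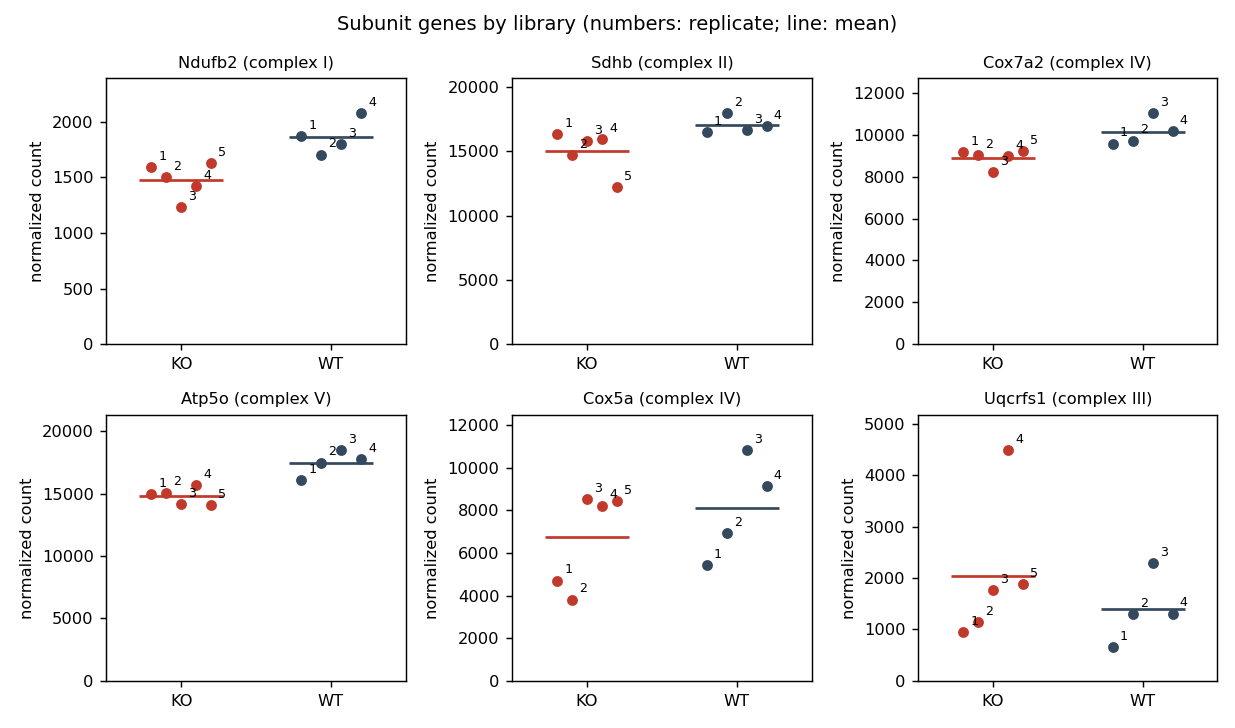
Normalized counts by library for the 4 members whose KO range lay below the WT range (Ndufb2, Sdhb, Cox7a2 and Atp5o) and for Cox5a and Uqcrfs1; points are libraries with their replicate numbers and lines are group means. In the first 4 the groups are close but apart, whereas Cox5a spans 3813 to 10838 and Uqcrfs1 663 to 4494 with the groups mixed.

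**Figure D5:**
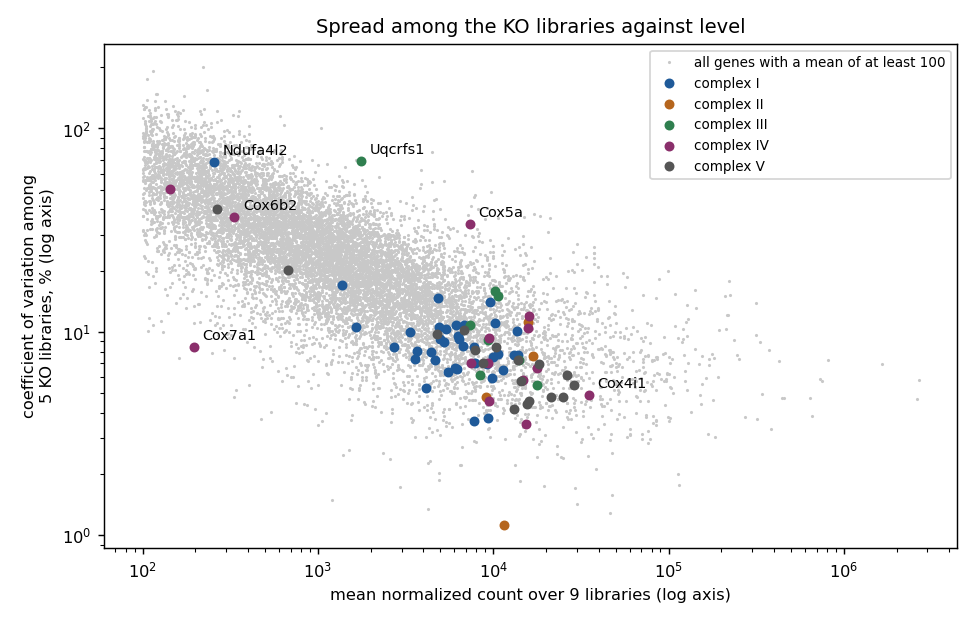
Coefficient of variation among the 5 KO libraries against the mean normalized count over all 9 libraries, both on log axes; grey points are all genes with a mean of at least 100 and coloured points the subunit genes. Most members with a mean of 4000 to 40000 lie low in the cloud (median 7.28%), while Uqcrfs1 at 69.4% and Cox5a at 34.0% lie at its upper edge.

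Other genes of the pathway, taken from lists that were chosen with earlier results of these data known, were likewise mostly below 0. Of 116 genes in 10 lists 0 were called, and 12 were at an unadjusted p under 0.05 (10.3%, near the 9.14% of all genes); 84 were below 0 (72.4%, beside 47.6% of all genes) and the median log2 difference was -0.12; with equal totals 66 were below 0 and the median was -0.044, and with quantile normalization 85 and -0.13. The smallest adjusted p was 0.22, for Idh3b, a subunit of NAD-dependent isocitrate dehydrogenase. Among the carriers between complexes, Cycs, which encodes cytochrome c, stood at 21395 ± 1822 in KO against 25494 ± 2334 in WT (normalized counts, mean ± SD of 5 and 4 libraries; difference -0.25, SE 0.086; limma, adjusted p = 0.303), and 11 of 14 genes of coenzyme Q synthesis and cytochrome c were below 0. All 4 subunit genes outside the symbol rule were below 0, among them Cyc1 (cytochrome c1, -0.42) and Usmg5 (a small subunit of ATP synthase, -0.22). Below 0 were also 10 of 17 assembly factors of complex I, 2 of 4 of complex II, 4 of 6 of complex III, 19 of 25 of complex IV, and all 4 genes of complex V assembly and inhibition, which include Atpif1, the inhibitor of ATP synthase (15449.9 ± 1056 against 17129 ± 759, difference -0.15). The assembly factors Coa5 and Lrpprc had differences of -0.39 and -0.59. Tmem177, a further factor of complex IV, had 207 ± 68.1 against 80.4 ± 103 (adjusted p = 0.354 in limma). In the citric acid cycle 10 of 13 genes were below 0, with Idh3b at -0.30, Fh1 (fumarase) at -0.40 and, in the other direction, Ogdh at 0.23 (adjusted p = 0.22, 0.25 and 0.354 in limma). Of the mitochondrial membrane proteins 10 of 13 were below 0, such as the ADP/ATP carrier Slc25a5 (-0.19) and the channel Vdac2 (-0.21). Of the regulators of mitochondrial biogenesis 10 of 16 were below 0. The factors whose letters were searched in the promoters had no common direction: Nrf1 had 1442 ± 239 against 1147 ± 249 (difference 0.34, adjusted p = 0.672 in limma), Gabpa 2382 ± 457 against 2775 ± 367 (-0.23), Yy1 1062 ± 170.1 against 1047 ± 246 (0.041) and Esrra, at a low level, 116 ± 55.8 against 148 ± 40.3 (-0.50). Ppargc1a, the coactivator of these factors, was at the floor of 1 in 6 of 9 libraries and reached 123 normalized counts in KO and 220.5 in WT.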

How the data were processed

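Polyadenylated RNA was sequenced from 9 libraries, made strand-specific by the dUTP method per the labels' protocols. CASAVA 1.8.2, Partek, HISAT, DESeq2 and the build mm10 appear in the submitters' processing notes, without their roles. Each deposited value is a signal: normalized read counts, which by the spacing of their values are reads divided by 1 factor per library, with a floor of 1. Reads per library were worked out from that spacing.

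KO and WT were compared in limma 3.58.1 (R 4.3.3) on log2(value + 1), trend on, with genotype alone in the model and all 9 libraries; p-values were adjusted by Benjamini-Hochberg over the 14905 genes, with a threshold of 0.05. This scale understates differences of low genes. Positions and lengths are from GENCODE M21 on GRCm38 (mm10), matched for all 82 members.

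Named were, per complex, the 3 smallest p, the largest change each way and the 2 highest and lowest levels, all Sdh genes, isoform pairs, and up to 3 genes of each list; others named (Cox5a, core subunits, factors of the promoter motifs) were picked after their values were seen. Members and lists were chosen with earlier results of these data known. Alternatives were other pseudocounts, filters and scalings, depth class, replicate block, limma-voom on the reads and each library left out. 1 member is counted in the totals and not reported by name. Figures used matplotlib 3.10.9.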

Additional observations from a re-analysis of the deposited data

Results flagged for a closer look

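Of the 166 groups tested (the 82 genes and Nucb2 in 2 genotypes), 7 (4.22%) held 1 library far from the others of its group, where chance alone gives about 5% of groups. In KO replicate 3, Atp5s stood at 427 normalized counts (167 to 239 in the other KO libraries), Cox6b2 at 618.6 (297 to 333) and Cox7a2 at 8196 (8965 to 9201). Ndufb10 was lowest in KO replicate 1, at 6387 (7632 to 7963 in the others), and Ndufb8 highest in KO replicate 2, at 14413 (12032 to 12609.5). Uqcrfs1 was highest in KO replicate 4, at 4494 (956 to 1889). Cox4i2 was highest in WT replicate 3, at 83.5 (1 to 11 in the other WT libraries).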

How the results depend on the processing

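The alternatives were pseudocounts of 0.1 and 10, a mean of at least 10, a value above 1 in at least 4 libraries, median-ratio and quantile scaling, a term for depth class, only the 6 deeper libraries, limma-voom on the recovered reads, replicate number as a block, each library left out, and, added after seeing the data, equal totals. The count of subunit genes called was 0 in each. Genes called over the whole table fell from 46 to 0 with the replicate block, which leaves out KO replicate 5 (1104 at an unadjusted p under 0.05) and to 0 in the deeper libraries (1039), and were between 5 and 38 with 1 library left out. Over all genes, same-numbered libraries (replicates 1 to 4) had correlations of -0.021, -0.0016, 0.016 and 0.017, with replicates 3 and 4 correlating best with their own number. Over the subunit genes the correlations were 0.32, -0.62, -0.81 and 0.36. The numbers were treated as names only, but correlations this near 0 over all genes cannot decide whether the numbers pair the libraries. Nucb2 was -1.58 with the block (adjusted p = 0.0515) and -1.61 in the deeper libraries (adjusted p = 0.116). With equal totals the medians of complexes I to V were -0.027, -0.089, -0.0075, -0.054 and -0.051; in the deeper libraries that of complex II was -0.11. Signs turned for 9 of 41 genes followed, none of them called: Cox4i1 (0.0033, equal totals), Uqcrc2 (0.013, equal totals; 0.0698, deeper libraries), Cox4i2 (-0.0067, replicate block), Cox7a1 (-0.045, quantile), Cox8b (-0.24, quantile; -0.11, deeper libraries) and Ndufa4l2 (0.073, depth class). With 1 library left out the values ranged from -0.38 to 0.058 for Atp5s, -0.22 to 1.58 for Cox4i2, -0.059 to 0.25 for Cox7a1, -0.32 to 1.08 for Cox8b, -0.51 to 0.091 for Ndufa4l2, -0.029 to 0.23 for Ndufs1 and -0.017 to 0.14 for Sdha. The cause was not tested. Cox4i2 and Cox8b were each at the floor in 3 libraries, 2 of them of the deeper class.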
